A study of Mus musculus with 12 samples.

Results

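The 10 genes described here encode surface proteins of the T cell lineage: the adhesion molecules Thy1 and Cd2, the scavenger receptor family members Cd5 and Cd6, the immunoglobulin-family receptors Cd7 and Cd28, the co-receptor chains Cd4, Cd8a and Cd8b1, and Il2ra, the alpha chain of the interleukin 2 receptor. They were chosen by name, with earlier results of these data known, and found by symbol among the 39017 genes of the deposited count table. RNA was sequenced from 12 libraries of mouse bone marrow LSK cells (Lin- Sca1+ cKit+), the fraction that holds stem cells and multipotent progenitors, sorted after loss of cells that carry mature lineage antigens; the labels do not name the lineage antibodies. The libraries form 4 labelled groups of 3. The group NICD_TCFKO has, per its labels, the genotype R26 N1IC lox/+ Tcf7 lox/lox Mx1Cre, which combines an inducible active Notch1 intracellular domain (N1IC) with a floxed Tcf7 gene. NICD_TCFWT (R26 N1IC lox/+ Mx1Cre) carries N1IC alone, NOTCHWT_TCFKO (Tcf7 lox/lox Mx1Cre) the floxed Tcf7 alone, and NOTCHWT_TCFWT is wild type. All mice were of the C57BL/6J; Sv/129 background and all received poly(I:C) at 2 ug/g, which induces Mx1Cre, an interferon-driven recombinase that is not restricted to one cell type, in the 3 engineered groups and was a control injection in the wild type. Cells of both NICD groups were gated in addition as CD45.2+ eGFP+, so that this gate and the N1IC label cannot be told apart. Nothing in the labels ties a replicate to a mouse of its own, and p-values therefore measure only the spread between these samples.

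Thymus-seeding progenitors lack most of these antigens and acquire them in steps. Notch signalling starts the T cell programme in mice, and TCF-1, the product of Tcf7, is one of the factors it induces. Il2ra (CD25) appears on double-negative thymocytes together with rising Thy1 and Cd5, while Cd4, Cd8a and Cd8b1 mark the later double-positive stage. Several of the 10 genes are not exclusive to T cells. In mice Cd4 and Cd8a are also made by subsets of dendritic cells, where CD8 is a homodimer of alpha chains without the beta chain encoded by Cd8b1.

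The genes that the labels name went against them in part, so groups are called by their labels and every direction is one between libraries so labelled. Tcf7 averaged 603 ± 300 CPM (SD, n = 3, as for all group means; CPM are counts scaled to library size with TMM factors) in NICD_TCFKO, where it is labelled as deleted, and 5.5 ± 1.11 CPM in NICD_TCFWT, 1.28 ± 1.31 CPM in NOTCHWT_TCFKO and 14.8 ± 4.54 CPM in NOTCHWT_TCFWT. Notch1 and its target Dtx1 were high in NICD_TCFKO and NOTCHWT_TCFWT, with Dtx1 at 121 ± 51.3 and 85.4 ± 5.67 CPM, and low in NICD_TCFWT and NOTCHWT_TCFKO, with Dtx1 at 0.124 ± 0.0602 and 0.208 ± 0.189 CPM. Library totals lay between 30453271 and 43790674 counts, so 3 counts in the shallowest library equal 0.0985 CPM. NOTCHWT_TCFKO 1 held both Xist (2156 CPM) and Y-linked transcripts (154 CPM). Every NOTCHWT_TCFWT library was high in Xist, with Y-linked transcripts near 0. NICD_TCFKO 1, NICD_TCFWT 1 and 2 and NOTCHWT_TCFKO 3 were low in Xist, with Y-linked transcripts at 355, 308, 328 and 337 CPM. Sex by these transcripts is thus uneven between groups and in part cannot be told apart from differences against NOTCHWT_TCFWT. Several libraries lay at one end of their group in many of the 10 genes. NICD_TCFKO 1 was the lowest of its group in 10 of the 10 genes and, unlike the other two, was low in Xist. NICD_TCFKO 2 was the highest of its group in 9 of the 10, and NOTCHWT_TCFKO 2 in 7. Next came NICD_TCFWT 3, the highest of its group in 6, and NOTCHWT_TCFKO 1, the lowest in 6. The share of all genes at such an end was not computed. In bulk samples fewer cells of a type and less RNA per cell cannot be told apart.

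Across the 6 pairs of groups, 2 patterns recurred. Thy1, Cd5, Cd6 and Cd7 were each higher in NICD_TCFKO and in NOTCHWT_TCFWT than in NICD_TCFWT and in NOTCHWT_TCFKO. Cd4 and Cd28 had their lowest mean in NOTCHWT_TCFWT and their highest in NOTCHWT_TCFKO. Il2ra averaged 802 ± 438 CPM in NICD_TCFKO and at most 1.904 CPM in the other groups, and 2 genes, Cd2 and Cd8b1, had too few counts to pass the filter on low counts, which left 8 to be tested among 16024 genes. Of the 8, Cd8a passed this filter only through NICD_TCFKO and NOTCHWT_TCFKO, and Cd28 only through groups other than NOTCHWT_TCFWT. Calls of either gene against a group where it was near 0 were thus partly set by the filter.

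Each pair was tested with edgeR's quasi-likelihood test and Benjamini-Hochberg adjustment over all genes tested, with an adjusted p under 0.05 as the threshold, and the counts below are set beside the share of all tested genes that passed. The genes and the lists further below were chosen with earlier results of these data known. That share is therefore a description and not a test of them. NICD_TCFKO against NICD_TCFWT addresses Tcf7 loss in cells with N1IC, as labelled. Here 6 of 8 genes were higher (Thy1, Cd5, Cd6, Cd7, Cd8a, Il2ra) and Cd28 and Cd4 did not pass, while 7.25% of all genes were higher, 5.15% lower and 12.4% called in either direction. The libraries of the groups did not overlap in 7 of 8, where 38% of all genes showed none. The median log2 fold change of the 8 was 3.68, against 0 over all genes. Labelled Tcf7 loss without N1IC, in NOTCHWT_TCFKO against NOTCHWT_TCFWT, went with 3 higher (Cd28, Cd4, Cd8a) and 4 lower (Thy1, Cd5, Cd6, Cd7), where 10.8% of all genes were higher, 10.5% lower and 21.3% either. The libraries did not overlap in 7 of 8, against 37% of all genes. The median of the 8 was -1.63, against 0.00 over all genes.

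Labelled N1IC with Tcf7 labelled intact, in NICD_TCFWT against NOTCHWT_TCFWT, went with 2 higher (Cd28, Cd4) and 4 lower (Thy1, Cd5, Cd6, Cd7). Of all genes 10.6% were higher, 9.75% lower and 20.4% either. The libraries did not overlap in 7 of 8, against 44.2% of all genes, and the medians were -1.37 for the 8 genes and 0 for all. This is the pair whose count depends most on single libraries: it was 2 of 8 without NICD_TCFWT 3 or without NOTCHWT_TCFWT 1. Labelled N1IC with Tcf7 labelled deleted, in NICD_TCFKO against NOTCHWT_TCFKO, went with 5 higher (Thy1, Cd5, Cd6, Cd7, Il2ra) and 1 lower (Cd4), against 10.3% and 8.06% of all genes and 18.4% in either direction. The libraries did not overlap in 6 of 8, against 32.8% of all genes. The median of the 8 was 3.82, and that of all genes 0.00.

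Both alterations together, as labelled, in NICD_TCFKO against NOTCHWT_TCFWT, went with 6 higher (Thy1, Cd5, Cd6, Cd4, Cd8a, Il2ra), against 4.01% of all genes higher, 2.3% lower and 6.3% either. The libraries did not overlap in 7 of 8, against 25.9% of all genes. The medians were 2.29 for the 8 and 0.01 for all genes, and the count was 3 without NOTCHWT_TCFWT 3 and 3 with only this pair fitted. Between NOTCHWT_TCFKO and NICD_TCFWT edgeR called 0 of 8, where 2.87% of all genes passed, 1.34% higher and 1.54% lower. The libraries did not overlap in 2 of 8 (Cd4 and Cd8a), against 27.8% of all genes. At an unadjusted p under 0.05 edgeR gave 2 higher and 0 lower, DESeq2 called 2 higher with adjustment (3 higher and 1 lower without it) and limma-voom 1 higher (1 without it). A test of the interaction, the log2 fold change of NICD_TCFKO over NICD_TCFWT minus that of NOTCHWT_TCFKO over NOTCHWT_TCFWT, called 7 of 8, 5 with a positive and 2 with a negative sign, against 13.8% and 13.5% of all genes and 27.4% in either direction. These comparisons share groups and are not independent of each other.

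**Figure D1:**
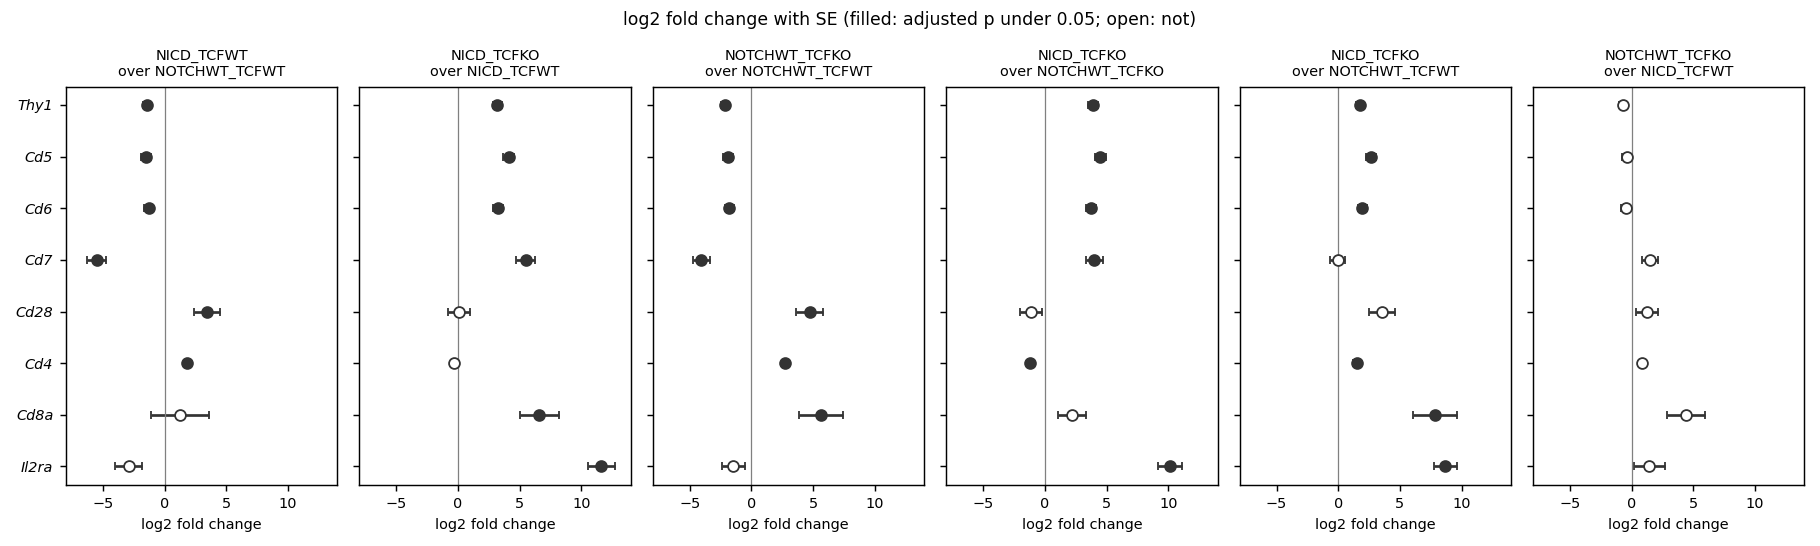
log2 fold change (x axis) of the 8 tested genes (y axis) in the 6 pairs of labelled groups; points are edgeR estimates, bars their SE, and filled points have an adjusted p under 0.05. The points of Thy1, Cd5 and Cd6 keep close together in every panel, and Il2ra lies farthest right in the 3 panels with NICD_TCFKO on top. Cd4 lies on the other side of 0 from Thy1 in every panel but NICD_TCFKO over NOTCHWT_TCFWT, although not all of these differences passed.

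Start-site windows of 250 bases before to 50 after the start were found in RefSeq (GRCm38.p6) for 3 of the 10 genes, Cd5, Cd8a and Il2ra, and are shown because these 3 were higher together in NICD_TCFKO than in NICD_TCFWT, libraries that also differ in Notch1 and Tcf7. Each is written 5' to 3' on the strand of the gene, Cd5 from chr19:10738925-10739224 (minus strand), Cd8a from chr6:71373177-71373476 (plus strand) and Il2ra from chr2:11642542-11642841 (plus strand). Capitals mark a match to the core TGGGAA of RBPJ, the DNA-binding partner of Notch, on either strand.
Cd5: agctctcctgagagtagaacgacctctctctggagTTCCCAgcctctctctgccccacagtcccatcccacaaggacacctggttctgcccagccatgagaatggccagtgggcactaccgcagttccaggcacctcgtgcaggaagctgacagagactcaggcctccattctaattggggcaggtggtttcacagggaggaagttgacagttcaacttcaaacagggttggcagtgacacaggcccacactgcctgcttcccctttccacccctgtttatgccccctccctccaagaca
Cd8a: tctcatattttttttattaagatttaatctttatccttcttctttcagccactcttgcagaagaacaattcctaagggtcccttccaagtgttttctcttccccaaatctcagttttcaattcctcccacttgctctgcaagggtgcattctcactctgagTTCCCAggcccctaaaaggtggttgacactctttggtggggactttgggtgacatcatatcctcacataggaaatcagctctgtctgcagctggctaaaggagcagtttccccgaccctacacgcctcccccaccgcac
Il2ra: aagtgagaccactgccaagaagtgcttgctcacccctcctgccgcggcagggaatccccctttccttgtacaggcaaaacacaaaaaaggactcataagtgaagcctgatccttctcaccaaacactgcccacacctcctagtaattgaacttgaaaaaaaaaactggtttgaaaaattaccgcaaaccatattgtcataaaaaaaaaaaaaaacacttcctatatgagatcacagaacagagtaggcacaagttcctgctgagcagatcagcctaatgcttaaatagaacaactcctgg
The RBPJ core occurs in the window of Cd5, with its first base at -215 from the start, and in that of Cd8a, at -89, both as the reverse complement TTCCCA. It occurs in 25.6% of the 32851 mouse windows of the same length. The TCF/LEF core CTTTGA (16.003% of windows) and the Runx core TGTGGT (16.8%) are in none of the 3, nor is the GATA core AGATAA (11.2%). The E-box CANNTG, present in 72.3% of windows, occurs 2 times in that of Cd5 and 3 times in that of Cd8a, and not in that of Il2ra. The motifs do not overlap one another in these windows, and a match describes letters only.

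Thy1 (ENSMUSG00000032011, mm10 chromosome 9, 44043384 to 44048579), the GPI-anchored glycoprotein also known as CD90 that is carried by mouse T cells and in part by stem cells, was measured in every library. It was at 81.0, 196 and 186 CPM in NICD_TCFKO, 20.1, 19.2 and 11.5 CPM in NICD_TCFWT, 8.24, 10.1 and 12.6 CPM in NOTCHWT_TCFKO, and 49.95, 52.7 and 34.7 CPM in NOTCHWT_TCFWT. The 3 libraries labelled NICD_TCFKO lay above all others and those labelled NOTCHWT_TCFWT above the remaining 6, which overlapped between their 2 groups. Against NICD_TCFWT, Thy1 was 9.12-fold higher in NICD_TCFKO (log2 fold change 3.19 ± 0.37, SE, edgeR adjusted p = 0.000784). Against NOTCHWT_TCFWT it was lower in NOTCHWT_TCFKO (-2.15 ± 0.36, adjusted p = 0.00253) and in NICD_TCFWT (-1.44 ± 0.35, adjusted p = 0.0169). It was higher in NICD_TCFKO than in NOTCHWT_TCFKO (3.90 ± 0.38, adjusted p = 0.000155) and than in NOTCHWT_TCFWT (1.75 ± 0.35, adjusted p = 0.0182). Between NOTCHWT_TCFKO and NICD_TCFWT the difference of -0.72 had a 95% interval of -1.49 to 0.06 (adjusted p = 0.26). The call for NICD_TCFWT against NOTCHWT_TCFWT was lost without NICD_TCFWT 3, NOTCHWT_TCFWT 1 or NOTCHWT_TCFWT 2 (highest adjusted p = 0.0552). That for NICD_TCFKO against NOTCHWT_TCFWT was lost without NICD_TCFKO 2 or 3 or NOTCHWT_TCFWT 1 or 3 (highest adjusted p = 0.0765) and when the other groups were left out of the fit (adjusted p = 0.0702).

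Cd2, the adhesion receptor that binds CD48 on mouse cells (ENSMUSG00000027863, chromosome 3, 101275899 to 101287939), was close to the limit of detection. Its counts were 0, 3 and 20 in NICD_TCFKO, 1, 2 and 6 in NICD_TCFWT, 1, 37 and 2 in NOTCHWT_TCFKO, and 2, 2 and 7 in NOTCHWT_TCFWT. A single library, NOTCHWT_TCFKO 2, thus holds the most of them, and the groups overlap. No difference in Cd2 was detectable at this depth. Its ligand gene Cd48 was by contrast expressed throughout, at 219 ± 37.5, 185 ± 30.5, 103 ± 8.57 and 301 ± 58.4 CPM in NICD_TCFKO, NICD_TCFWT, NOTCHWT_TCFKO and NOTCHWT_TCFWT.

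**Figure D2:**
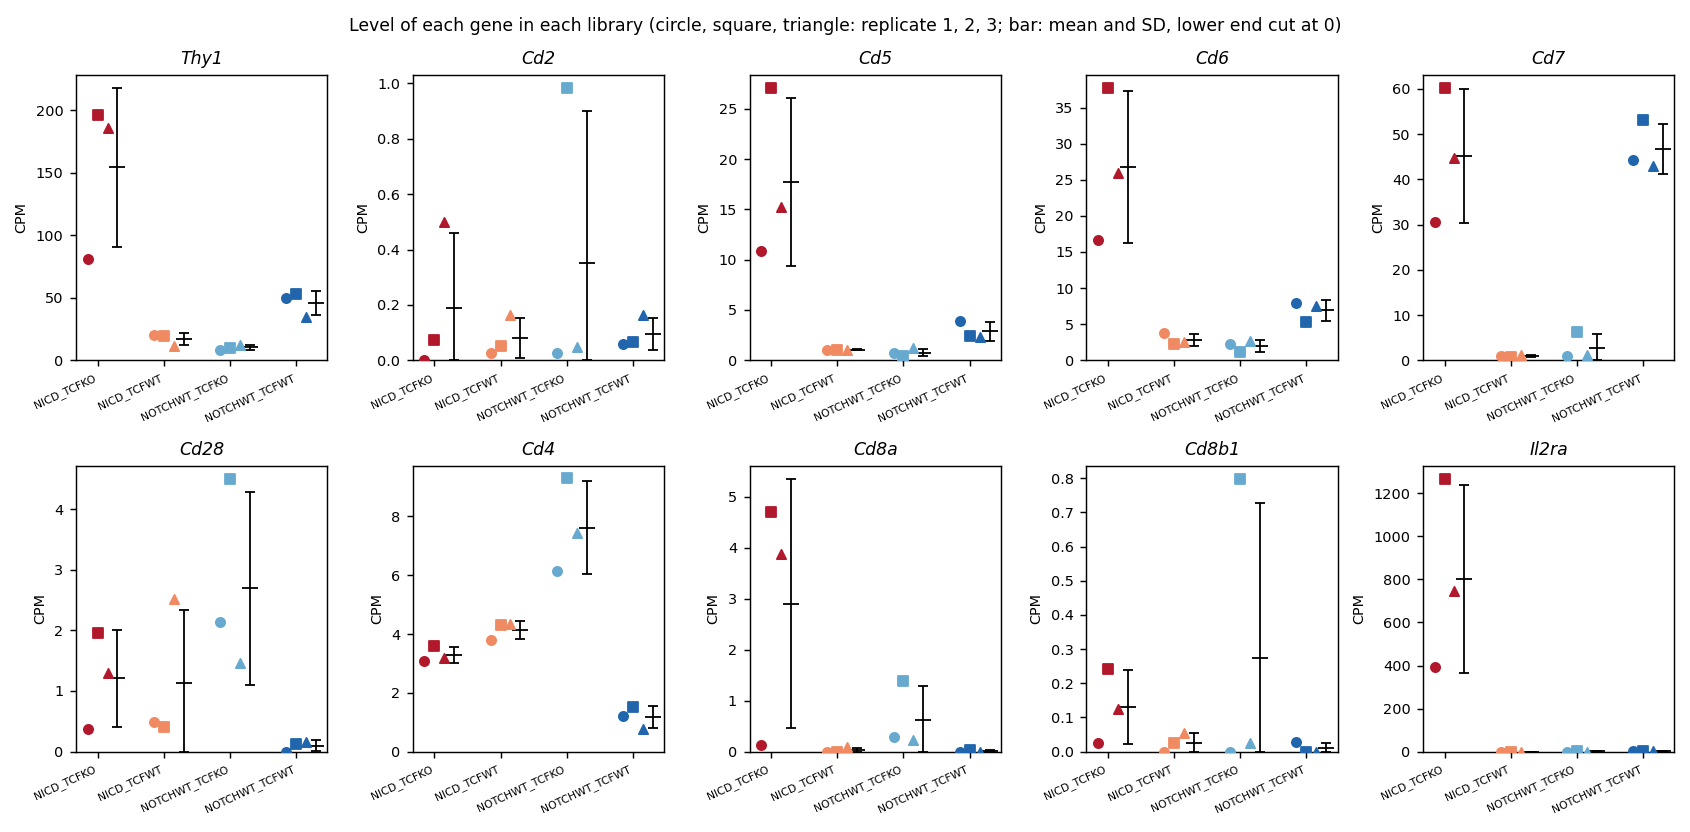
CPM (y axis, linear, a scale of its own for each gene) of the 10 genes in the 12 libraries, by labelled group (x axis); circles, squares and triangles are replicates 1, 2 and 3, and the black bar gives the mean and SD of 3 libraries with its lower end stopped at 0. Thy1, Cd5, Cd6 and Il2ra are highest in the 3 libraries labelled NICD_TCFKO, Cd7 is as high in NOTCHWT_TCFWT, Cd4 is highest in NOTCHWT_TCFKO, and the means of Cd2 and Cd8b1 in NOTCHWT_TCFKO come from 1 library.

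Cd5 and Cd6 encode related receptors that restrain signalling from the T cell receptor and lie next to each other on mm10 chromosome 19, Cd5 (ENSMUSG00000024669) at 10717116 to 10739002 and Cd6 (ENSMUSG00000024670) at 10789341 to 10830058, 50338 bases apart on the minus strand. Cd5 was at 10.9, 27.1 and 15.2 CPM in NICD_TCFKO, 1.06, 0.977 and 1.06 CPM in NICD_TCFWT, 0.687, 0.451 and 1.19 CPM in NOTCHWT_TCFKO, and 3.92, 2.38 and 2.31 CPM in NOTCHWT_TCFWT. Cd6 was at 16.7, 37.7 and 25.97 CPM in NICD_TCFKO, 3.72, 2.21 and 2.49 CPM in NICD_TCFWT, 2.27, 1.09 and 2.64 CPM in NOTCHWT_TCFKO, and 7.96, 5.29 and 7.47 CPM in NOTCHWT_TCFWT. In both genes NICD_TCFKO lay above NOTCHWT_TCFWT and NOTCHWT_TCFWT above the other 2 groups in every library, and those 2 groups overlapped. Cd5 was 17.2-fold higher in NICD_TCFKO than in NICD_TCFWT (log2 fold change 4.10 ± 0.44, edgeR adjusted p = 0.000381), and Cd6 9.55-fold (3.25 ± 0.39, adjusted p = 0.00077). In NOTCHWT_TCFKO against NOTCHWT_TCFWT they were lower by similar amounts, Cd5 at -1.88 ± 0.41 (adjusted p = 0.00827) and Cd6 at -1.78 ± 0.38 (adjusted p = 0.00726). Both were higher in NICD_TCFKO than in NOTCHWT_TCFKO, Cd5 by 4.50 ± 0.45 (adjusted p = 0.000107) and Cd6 by 3.74 ± 0.40 (adjusted p = 0.000197).

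Cd5 and Cd6 were also higher in NICD_TCFKO than in NOTCHWT_TCFWT, by 2.62 ± 0.41 (edgeR adjusted p = 0.00529) and 1.96 ± 0.37 (adjusted p = 0.0139). The Cd6 call was lost without NOTCHWT_TCFWT 3 (adjusted p = 0.0523). They were lower in NICD_TCFWT than in NOTCHWT_TCFWT, Cd5 at -1.48 ± 0.40 (adjusted p = 0.0257) and Cd6 at -1.30 ± 0.37 (adjusted p = 0.0313), but these calls were lost without any of 4 libraries each: NICD_TCFWT 2, NICD_TCFWT 3 and NOTCHWT_TCFWT 1 for both, NICD_TCFWT 1 for Cd5 and NOTCHWT_TCFWT 3 for Cd6 (highest adjusted p = 0.095 for Cd5 and 0.104 for Cd6). They were also lost in limma-voom (adjusted p = 0.158 and 0.0971), which in addition gave Cd5 an adjusted p of 0.0819 in NOTCHWT_TCFKO against NOTCHWT_TCFWT. Between NOTCHWT_TCFKO and NICD_TCFWT the 95% interval was -1.30 to 0.49 for Cd5 and -1.31 to 0.34 for Cd6. On the other side of Cd5, 2488 bases away, Vps37c, a subunit of the ESCRT-I sorting complex, averaged between 38.7 and 40.8 CPM in the 4 groups, and its log2 fold changes in the 6 pairs lay between -0.07 and 0.08.

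Cd7 (ENSMUSG00000025163, chromosome 11, 121036747 to 121039418), an immunoglobulin-family receptor of T, NK and early lymphoid cells, split the libraries more sharply than Thy1, Cd5 and Cd6 outside NICD_TCFKO. It was at 30.6, 60.1 and 44.7 CPM in NICD_TCFKO, 1.06, 0.746 and 1.24 CPM in NICD_TCFWT, 0.872, 6.32 and 1.24 CPM in NOTCHWT_TCFKO, and 44.3, 53.1 and 43.0 CPM in NOTCHWT_TCFWT. The libraries labelled NOTCHWT_TCFWT lay inside the range of NICD_TCFKO, and the other 6 lay far below both, with NOTCHWT_TCFKO 2 the highest of them. Cd7 was lower in NICD_TCFWT than in NOTCHWT_TCFWT by a factor of 45.9 (log2 fold change -5.52 ± 0.74, edgeR adjusted p = 0.00102), and lower in NOTCHWT_TCFKO than in NOTCHWT_TCFWT by a factor of 16.7 (-4.06 ± 0.68, adjusted p = 0.00295). Without NOTCHWT_TCFKO 2 the second of these became -5.48, and the log2 fold change of NICD_TCFKO over NOTCHWT_TCFKO became 5.42. It was higher in NICD_TCFKO than in NICD_TCFWT (5.47 ± 0.74, adjusted p = 0.00206) and than in NOTCHWT_TCFKO (4.01 ± 0.68, adjusted p = 0.00415), the last call being lost when this pair was fitted alone (adjusted p = 0.0556). Between NICD_TCFKO and NOTCHWT_TCFWT the difference was -0.05 ± 0.59, with a 95% interval of -1.37 to 1.27 (adjusted p = 0.978). An antisense gene, Gm11775, overlaps Cd7 and held 8 counts over all 12 libraries. Whether counting used strand is not given in the sources used here.

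Cd28, the costimulatory receptor for CD80 and CD86 (ENSMUSG00000026012, chromosome 1, 60716800 to 60773359), was low everywhere and lowest in NOTCHWT_TCFWT. It was at 0.375, 1.96 and 1.29 CPM in NICD_TCFKO, 0.489, 0.411 and 2.52 CPM in NICD_TCFWT, 2.14, 4.49 and 1.45 CPM in NOTCHWT_TCFKO, and 0, 0.132 and 0.163 CPM in NOTCHWT_TCFWT, where the 3 libraries hold 11 counts in all. The libraries labelled NOTCHWT_TCFWT lay below every other library, and the other 3 groups overlapped. The one difference called without exception when each library was left out was that of NOTCHWT_TCFKO over NOTCHWT_TCFWT (log2 fold change 4.71 ± 1.09, edgeR adjusted p = 0.0116, highest adjusted p = 0.0382), which was 4.12 without NOTCHWT_TCFKO 2 and 5.34 without NOTCHWT_TCFWT 3. NICD_TCFWT was higher than NOTCHWT_TCFWT as well (3.47 ± 1.06, adjusted p = 0.0414), a call lost without any of 7 libraries, which include NICD_TCFWT 1 and 3, NOTCHWT_TCFWT 1, 2 and 3, NICD_TCFKO 3 and NOTCHWT_TCFKO 1 (highest adjusted p = 0.179, with a log2 fold change of 2.12, without NICD_TCFWT 3), and lost in limma-voom (adjusted p = 0.127), with no filter on low counts (adjusted p = 0.057) and when this pair was fitted alone (adjusted p = 0.0565). NICD_TCFKO over NOTCHWT_TCFWT did not pass at 3.55 ± 1.06 (adjusted p = 0.0757), but did without NICD_TCFKO 1 (adjusted p = 0.0498) and in DESeq2 (adjusted p = 0.00376). Between the 3 engineered groups the log2 differences had 95% intervals of -1.86 to 2.04 (NICD_TCFKO over NICD_TCFWT), -3.11 to 0.80 (NICD_TCFKO over NOTCHWT_TCFKO) and -0.72 to 3.20 (NOTCHWT_TCFKO over NICD_TCFWT). On the lower-coordinate side of Cd28, 149695 bases away, the actin regulator gene Raph1 was also higher in NOTCHWT_TCFKO than in NOTCHWT_TCFWT (3.92, adjusted p = 0.000961). The ligand gene Cd86 was likewise lowest in NOTCHWT_TCFWT, at 6.37 ± 1.86, 6.41 ± 1.49, 9.69 ± 2.05 and 2.31 ± 0.457 CPM in NICD_TCFKO, NICD_TCFWT, NOTCHWT_TCFKO and NOTCHWT_TCFWT.

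Cd4, the co-receptor for MHC class II (ENSMUSG00000023274, chromosome 6, 124864692 to 124888221), had little spread between replicates and an order of its own. It was at 3.08, 3.58 and 3.19 CPM in NICD_TCFKO, 3.80, 4.32 and 4.33 CPM in NICD_TCFWT, 6.13, 9.29 and 7.44 CPM in NOTCHWT_TCFKO, and 1.21, 1.52 and 0.770 CPM in NOTCHWT_TCFWT. No library of one group lay inside the range of another. Cd4 was 6.54-fold higher in NOTCHWT_TCFKO than in NOTCHWT_TCFWT (log2 fold change 2.71 ± 0.27, edgeR adjusted p = 8.31e-05) and 3.56-fold higher in NICD_TCFWT (1.83 ± 0.26, adjusted p = 0.000988). It was 2.82-fold higher in NICD_TCFKO than in NOTCHWT_TCFWT (1.49 ± 0.26, adjusted p = 0.00909), a call lost when the other groups were left out of the fit (adjusted p = 0.0544). It was lower in NICD_TCFKO than in NOTCHWT_TCFKO (-1.21 ± 0.25, adjusted p = 0.00897), lost when NICD_TCFKO 1 and NOTCHWT_TCFKO 2 were both left out (adjusted p = 0.0546). The differences between NICD_TCFKO and NICD_TCFWT (-0.34 ± 0.25, adjusted p = 0.406) and between NOTCHWT_TCFKO and NICD_TCFWT (0.88 ± 0.25, adjusted p = 0.0858) did not pass, although DESeq2 and limma-voom called the second (adjusted p = 0.00631 and 0.0476).

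The neighbour of Cd4, Lag3, which encodes an inhibitory receptor for MHC class II and lies 16139 bases away, ran the other way. Lag3 averaged 41.5 ± 6.08 CPM in NICD_TCFKO, 21.9 ± 3.98 CPM in NICD_TCFWT, 16.4 ± 3.36 CPM in NOTCHWT_TCFKO and 62.7 ± 7.27 CPM in NOTCHWT_TCFWT. It was thus highest where Cd4 was lowest and lowest where Cd4 was highest, with a log2 fold change of -1.93 in NOTCHWT_TCFKO against NOTCHWT_TCFWT (edgeR adjusted p = 6.21e-05). Summed levels of 11 dendritic cell markers and of 10 macrophage and monocyte markers were, like Cd4, lowest in NOTCHWT_TCFWT. The dendritic cell sum was 261 to 415 CPM in NICD_TCFKO, 684 to 745 CPM in NICD_TCFWT, 566 to 792 CPM in NOTCHWT_TCFKO and 113 to 141 CPM in NOTCHWT_TCFWT, where Siglech, Batf3 and Cd209a had no count. Most of it outside NICD_TCFKO and NOTCHWT_TCFWT was Flt3, which is also an LSK marker and averaged 548 CPM in NICD_TCFWT and 445 CPM in NOTCHWT_TCFKO, and Itgax was instead highest in NICD_TCFKO (113 ± 43.7 CPM). Against NOTCHWT_TCFWT, 2 of 10 tested dendritic cell markers were higher in NICD_TCFWT (Irf8 and Flt3) and 3 of 10 in NOTCHWT_TCFKO (Irf8, Clec9a and Flt3), and the others did not pass. Of all genes 10.6% and 10.8% were higher in these pairs, so these small counts lie not far above that share. The macrophage and monocyte sum was 182 to 356 CPM in NICD_TCFKO, 465 to 809 CPM in NICD_TCFWT, 316 to 927 CPM in NOTCHWT_TCFKO and 97.2 to 127 CPM in NOTCHWT_TCFWT. In NICD_TCFWT it was mostly Ccr2 (507 ± 122.6 CPM), while the complement genes C1qa, C1qb and C1qc and Vcam1 were high in NOTCHWT_TCFKO, with C1qa at 35.4 ± 4.73 CPM there and at most 1.37 CPM in the other groups; the single genes of these lists were named after their values were seen. Granulocyte markers over 9 genes summed to 306 to 1161 CPM in NICD_TCFKO, 1442 to 5836 CPM in NICD_TCFWT, 1279 to 9237 CPM in NOTCHWT_TCFKO and 37.6 to 61.7 CPM in NOTCHWT_TCFWT. Against NOTCHWT_TCFWT, 4 of 10 tested macrophage and monocyte markers were higher in NICD_TCFWT and 8 of 10 in NOTCHWT_TCFKO. Of 8 tested granulocyte markers 4 were higher in each of these pairs. The others did not pass, where 10.6% and 10.8% of all genes were higher. The part of these markers' cells in the differences of Cd4 and of Cd28 was not tested.

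The CD8 chains, the co-receptor for MHC class I, lie 35932 bases apart on chromosome 6, Cd8b1 (ENSMUSG00000053044) at 71322788 to 71337494 and Cd8a (ENSMUSG00000053977) at 71373427 to 71379173. Cd8a had 5, 194 and 156 counts in NICD_TCFKO (0.125, 4.70 and 3.88 CPM), 0, 0 and 3 counts in NICD_TCFWT, 11, 52 and 9 counts in NOTCHWT_TCFKO (0.291, 1.38 and 0.218 CPM), and 0, 1 and 0 counts in NOTCHWT_TCFWT. NICD_TCFKO 2 and 3 lay above all other libraries, NICD_TCFKO 1 lay below the libraries of NOTCHWT_TCFKO, and the libraries of both these groups lay above those of NICD_TCFWT and NOTCHWT_TCFWT. By summed counts scaled to library size, the ratio of NICD_TCFKO to the 3 counts of NICD_TCFWT was 106, with a 95% counting interval of 36.1 to 518. Against the 1 count of NOTCHWT_TCFWT the ratio was 316 for NICD_TCFKO (56.3 to 12503) and 67.8 for NOTCHWT_TCFKO (11.8 to 2716). Such intervals cover counting error only. The edgeR fit gave log2 fold changes of 6.60 ± 1.56 (adjusted p = 0.0222) for NICD_TCFKO over NICD_TCFWT, 7.83 ± 1.75 (adjusted p = 0.0272) for NICD_TCFKO over NOTCHWT_TCFWT and 5.63 ± 1.78 (adjusted p = 0.0462) for NOTCHWT_TCFKO over NOTCHWT_TCFWT. These became 9.80 without NICD_TCFWT 3, 9.82 without NOTCHWT_TCFWT 2, and 4.33 without NOTCHWT_TCFKO 2 or 7.64 without NOTCHWT_TCFWT 2. The first 2 calls were each lost without any of 5 libraries, NICD_TCFKO 2 and 3 and each library of the group compared with (highest adjusted p = 0.0887 and 0.113). The third was lost without any of 10, all but NICD_TCFKO 1 and NOTCHWT_TCFKO 3 (highest adjusted p = 0.144), with no filter on low counts (adjusted p = 0.0687) and with a term for inferred sample sheets (adjusted p = 0.0509). None of the 3 passed in limma-voom (adjusted p = 0.153, 0.198 and 0.268). NICD_TCFKO over NOTCHWT_TCFKO did not pass (2.20 ± 1.14, adjusted p = 0.212), but did when NICD_TCFKO 1 and NOTCHWT_TCFKO 2 were both left out (4.06, adjusted p = 0.014).

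Cd8b1 had 1, 10 and 5 counts in NICD_TCFKO, 0, 1 and 2 in NICD_TCFWT, 0, 30 and 1 in NOTCHWT_TCFKO, and 1, 0 and 0 in NOTCHWT_TCFWT. It therefore made up 16 of the 371 CD8 chain counts of NICD_TCFKO, or 4.31% (exact 95% interval 2.48 to 6.91%), and 31 of 103 in NOTCHWT_TCFKO, or 30.1% (21.5 to 39.9%). Per kb of exon, the ratio of Cd8b1 to Cd8a was 0.111 in NICD_TCFKO and 1.06 in NOTCHWT_TCFKO. The second value comes from 1 library, since NOTCHWT_TCFKO 2 holds 30 of those 31 counts, and the other two of its group held 0 of 11 and 1 of 10. In NICD_TCFKO 2 and 3, which hold nearly all the CD8 counts of their group, the share was 4.90% (2.38 to 8.83%) and 3.11% (1.02 to 7.10%).

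Among the dendritic cell markers, Xcr1 and Batf3, a receptor and a transcription factor of conventional dendritic cells that carry CD8 alpha in mice, were picked out after their values were seen. Xcr1 was at 0.15, 7.02 and 3.54 CPM in NICD_TCFKO, 0.0814, 0 and 1.38 CPM in NICD_TCFWT, 1.98, 1.20 and 1.84 CPM in NOTCHWT_TCFKO, and 0.0577, 0 and 0.0467 CPM in NOTCHWT_TCFWT. Batf3 was at 0.125, 3.51 and 1.79 CPM in NICD_TCFKO and at most 0.345 CPM in any library of the other 3 groups. In NICD_TCFKO both were thus low in replicate 1 and high in replicates 2 and 3, as was Cd8a. Other markers of the list, also named after their values were seen, varied. In NICD_TCFKO, Irf8 was at 19.1, 73.3 and 82.7 CPM and Siglech at 0, 0.605 and 1.44 CPM. Itgax was at 62.6, 142 and 134 CPM there and Ccr9 at 1.58, 6.10 and 6.20 CPM. These too were lowest in replicate 1, as were all 10 surface antigen genes, so this order is not particular to Xcr1, Batf3 and Cd8a. Flt3, at 127, 99.4 and 131 CPM, and Bst2, at 48.8, 64.8 and 44.4 CPM, did not show it. Siglech, Cd209a, Irf8 and Zbtb46 had their highest mean in NOTCHWT_TCFKO. T cell receptor complex markers were also lowest in replicate 1, with a sum over 11 genes of 276, 1163 and 834 CPM. The part of either cell type's transcripts in the Cd8a difference was not tested.

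Il2ra (ENSMUSG00000026770, chromosome 2, 11642807 to 11693193) had the largest range of the 10 genes. It was at 395, 1265 and 745 CPM in NICD_TCFKO, 0.326, 0.334 and 0.108 CPM in NICD_TCFWT, 0.132, 1.86 and 0.145 CPM in NOTCHWT_TCFKO, and 1.27, 1.06 and 3.38 CPM in NOTCHWT_TCFWT. The libraries labelled NICD_TCFKO lay more than 2 orders of magnitude above all others, and NOTCHWT_TCFKO 2 was the highest of its group by a wide margin. Per kb of exon, Il2ra ranked 277 of 15812 genes in NICD_TCFKO, against 15350 in NICD_TCFWT. It was higher in NICD_TCFKO than in NICD_TCFWT by 11.59 ± 1.09 on the log2 scale (edgeR adjusted p = 0.000403), than in NOTCHWT_TCFKO by 10.15 ± 1.00 (adjusted p = 0.000252) and than in NOTCHWT_TCFWT by 8.67 ± 0.92 (adjusted p = 0.00164). Without 1 library these values lay between 11.11 and 11.91, between 9.63 and 12.47 (the highest without NOTCHWT_TCFKO 2), and between 8.19 and 9.42 (the highest without NOTCHWT_TCFWT 3), with a highest adjusted p of 0.0128.

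Among the other 3 groups no difference in Il2ra passed. NICD_TCFWT over NOTCHWT_TCFWT was at -2.91 ± 1.09 (edgeR adjusted p = 0.092), but passed without NOTCHWT_TCFKO 2 (adjusted p = 0.0335), with this pair of groups fitted alone (adjusted p = 0.0149) and in DESeq2 (adjusted p = 0.0203). NOTCHWT_TCFKO over NOTCHWT_TCFWT was at -1.48 ± 0.92 (adjusted p = 0.292), and without NOTCHWT_TCFKO 2 at -3.80 (adjusted p = 0.04). NOTCHWT_TCFKO over NICD_TCFWT had a 95% interval of -1.36 to 4.23 (adjusted p = 0.525) and turned to -0.87 without NOTCHWT_TCFKO 2. The nearest protein-coding gene with counts, Il15ra, which encodes the interleukin 15 receptor alpha chain and lies 12096 bases away, did not follow Il2ra. Il15ra was at 15.9 ± 2.25 CPM in NICD_TCFKO and 22.9 ± 1.37 CPM in NICD_TCFWT, and was lower in NICD_TCFKO (log2 fold change -0.52, adjusted p = 0.0179).

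**Figure D3:**
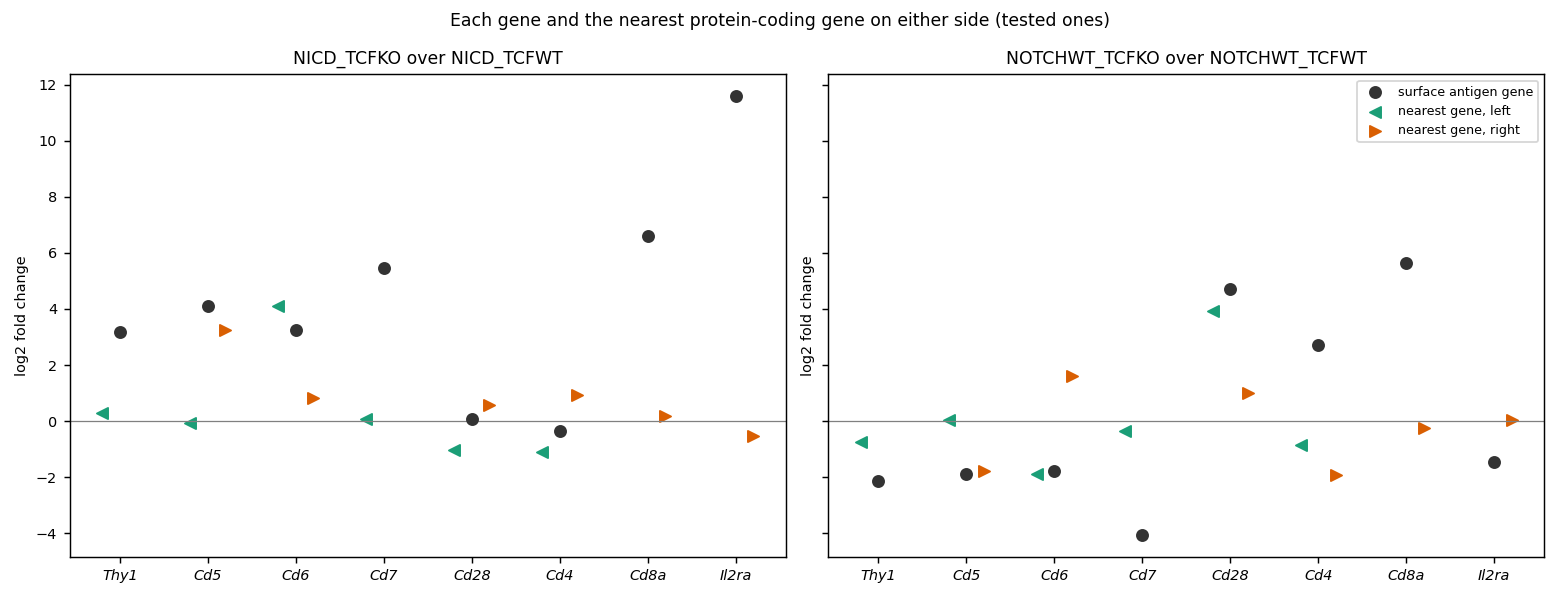
log2 fold change (y axis) of each tested gene (dark circles) and of the nearest protein-coding gene at lower (left-pointing) and higher (right-pointing) coordinates, where tested, for NICD_TCFKO over NICD_TCFWT and for NOTCHWT_TCFKO over NOTCHWT_TCFWT. Cd5 and Cd6 are each other's neighbour and lie together, at 4.10 and 3.25 in the first pair, while in the same pair Vps37c beside Cd5 lies near 0 and Il15ra beside Il2ra at -0.52.

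The other chains of the interleukin 2 receptor did not share the range of Il2ra. Il2rg, the common gamma chain, was at 119 ± 8.75 CPM in NICD_TCFKO, 75.2 ± 19.3 CPM in NICD_TCFWT, 53.2 ± 14.4 CPM in NOTCHWT_TCFKO and 164 ± 5.76 CPM in NOTCHWT_TCFWT. It was higher in NICD_TCFKO than in NOTCHWT_TCFKO (1.17 ± 0.21, edgeR adjusted p = 0.0045) and lower in NOTCHWT_TCFKO than in NOTCHWT_TCFWT (-1.62 ± 0.21, adjusted p = 0.000519). Il2rb and Il2, named after their values were seen, were low. The beta chain Il2rb averaged 1.595 ± 1.35, 1.28 ± 0.498, 2.34 ± 2.92 and 0.940 ± 0.646 CPM in NICD_TCFKO, NICD_TCFWT, NOTCHWT_TCFKO and NOTCHWT_TCFWT, and Il2, the ligand gene, averaged at most 0.220 CPM in a group. Lck, the kinase bound by the tails of CD4 and CD8 alpha, followed Thy1, Cd5 and Cd6 rather than Cd4. Lck was at 250, 556 and 411 CPM in NICD_TCFKO, 46.4, 34.6 and 24.2 CPM in NICD_TCFWT, 19.8, 12.7 and 39.3 CPM in NOTCHWT_TCFKO, and 210, 216 and 182 CPM in NOTCHWT_TCFWT.

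Of 20 genes for ligands, partners and signalling of these antigens, 19 were tested. In NICD_TCFKO against NICD_TCFWT 3 of 19 passed, a share near the 12.4% of all genes. Of these 2 rose, Lck by 3.53 ± 0.46 and the kinase Jak1 by 0.39 ± 0.07, and 1 fell, the CD2-binding adaptor Pstpip1 (log2 fold change -0.66 ± 0.12). Their median of 0.23 compares with 3.68 for the surface antigens. In NOTCHWT_TCFKO against NOTCHWT_TCFWT 7 fell and 2 rose, where 10.5% of all genes were lower and 10.8% higher. Cd48 changed by -1.54 ± 0.17 (edgeR adjusted p = 0.000179), Il2rg as given above, and Cd86 by 2.07 ± 0.29 (adjusted p = 0.000658). In NICD_TCFWT against NOTCHWT_TCFWT 5 fell and 2 rose, where 9.75% of all genes were lower and 10.6% higher, with Jak1 at -0.48 ± 0.07 and Lck at -2.53 ± 0.44 among the lower and Pstpip1 at 0.71 ± 0.12 among the higher. In NICD_TCFKO against NOTCHWT_TCFKO 7 rose, Lck by 4.08 ± 0.47 and Cd48 by 1.09 ± 0.17 among them, and 1 fell (Pstpip1, -0.48 ± 0.12), where 10.3% of all genes were higher and 8.06% lower. In NICD_TCFKO against NOTCHWT_TCFWT 1 rose, Cd86 by 1.46 ± 0.28 (6.3% of all genes passed), and in NOTCHWT_TCFKO against NICD_TCFWT 1 fell, Cd48 (-0.84 ± 0.17, 2.87% of all genes passed).

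A list of 25 other T cell surface receptors, 24 of them tested, held genes with both patterns. In NICD_TCFKO against NICD_TCFWT 8 rose and 1 fell, where 7.25% of all genes were higher and 5.15% lower. Slamf6, a homotypic adhesion receptor, changed by 4.11 ± 0.51, the tetraspanin Cd82 by 1.65 ± 0.23, and Ly9, a SLAM family receptor, by -0.96 ± 0.14. In NICD_TCFWT against NOTCHWT_TCFWT 3 rose and 7 fell, and in NOTCHWT_TCFKO against NOTCHWT_TCFWT 7 rose and 9 fell, where 20.4% and 21.3% of all genes passed in either direction. In both, the inhibitory receptor Btla rose, by 4.82 ± 0.43 and 5.30 ± 0.44, Ly9 rose by 1.85 ± 0.14 and 1.70 ± 0.14, and Lag3 fell (-1.52 ± 0.18 and -1.93 ± 0.18). In NICD_TCFKO against NOTCHWT_TCFKO 9 rose and 2 fell, Btla and Ly9, where 18.4% of all genes passed. Lag3 rose by 1.34 ± 0.18 and the inhibitory receptor Pdcd1 (PD-1) by 3.77 ± 0.58. In NICD_TCFKO against NOTCHWT_TCFWT 6 rose, Slamf6 by 4.76 ± 0.53 and Btla by 4.12 ± 0.42 among them, and 1 fell, the hyaluronan receptor Cd44 (named after its values were seen), where 6.3% of all genes passed. In NOTCHWT_TCFKO against NICD_TCFWT 1 rose, the ectoenzyme Cd38 (1.93 ± 0.34), and 1 fell, Pdcd1 (-2.79 ± 0.57), where 2.87% of all genes passed.

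Il7r, the interleukin 7 receptor alpha chain of lymphoid progenitors, combined the 2 patterns. It was at 31.7, 83.4 and 78.6 CPM in NICD_TCFKO, 4.37, 2.29 and 7.63 CPM in NICD_TCFWT, 10.3, 11.3 and 15.9 CPM in NOTCHWT_TCFKO, and 0.26, 0.43 and 0.724 CPM in NOTCHWT_TCFWT. It was highest in NICD_TCFKO, like Thy1, Cd5, Cd6 and Il2ra, and lowest in NOTCHWT_TCFWT, like Cd4 and Cd28, with no overlap between the groups. In NICD_TCFKO against NOTCHWT_TCFWT it rose by 7.06 ± 0.64 (edgeR adjusted p = 0.00043).

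Of the T cell receptor complex genes, 10 of 10 tested were higher in NICD_TCFKO than in NICD_TCFWT, where 7.25% of all genes were higher. In NICD_TCFKO 8 of 10 were higher than in NOTCHWT_TCFKO and than in NOTCHWT_TCFWT, where 10.3% and 4.01% of all genes were. Among the 10, Cd3d, Cd3e, Cd3g and Ptcra averaged at most 0.645 CPM in any other group. They passed the filter on low counts only through NICD_TCFKO, so these counts of higher genes were partly set by the filter. Trac was found but not tested, at 0.0244 CPM in NICD_TCFKO and 0.274 CPM in NOTCHWT_TCFKO. In NICD_TCFWT and in NOTCHWT_TCFKO, each against NOTCHWT_TCFWT, 2 of 10 were lower (Trbc1 and Trbc2), 1 was higher (Cd247) and 7 did not pass. Of all genes 9.75% and 10.5% were lower in these pairs, and 20.4% and 21.3% passed in either direction, so these counts are near that share. Several that did not pass, Cd3d, Cd3e, Cd3g and Ptcra, were near the floor in NOTCHWT_TCFWT and had little room to fall. Thy1, Cd5, Cd6 and Cd7, which fell in both pairs, were above that floor. The sum over 11 of 12 listed genes found was 276 to 1163 CPM in NICD_TCFKO, 4.63 to 6.36 CPM in NICD_TCFWT, 2.06 to 10.97 CPM in NOTCHWT_TCFKO and 143 to 192 CPM in NOTCHWT_TCFWT. Trac, Cd3g and Ptcra had no count in NICD_TCFWT and Ptcra had none in NOTCHWT_TCFKO, while no gene of the list was at 0 in the other 2 groups. In NOTCHWT_TCFWT the sum was nearly all Trbc2 (136 ± 13.9 CPM) and Trbc1 (34.5 ± 12.05 CPM), constant region genes of the T cell receptor beta chain, and the CD3 chain genes Cd3d, Cd3e and Cd3g averaged 0.0783, 0.0751 and 0.0581 CPM. These genes were named after their values were seen. The sum over 10 NK cell markers spanned less. It was 217 to 303 CPM in NICD_TCFKO and 220 to 264 CPM in NOTCHWT_TCFWT. In NICD_TCFWT it was 128 to 159 CPM and in NOTCHWT_TCFKO 103 to 147 CPM. Most of it in every group was Nkg7 (212.7 CPM in NOTCHWT_TCFWT), and single genes spanned more. Gzma averaged 80.4 ± 51.8 CPM in NICD_TCFKO and 19.6 ± 27.5 CPM in NOTCHWT_TCFWT. It averaged 0.168 CPM in NICD_TCFWT and 0.871 CPM in NOTCHWT_TCFKO. Prf1 was instead highest in NOTCHWT_TCFWT (3.99 ± 2.46 CPM) and Klrb1c in NICD_TCFWT (12.3 ± 4.82 CPM). These too were named after their values were seen. The sum over 10 LSK and stem cell markers was 1518 to 2180 CPM in NICD_TCFKO, 3213 to 3729 CPM in NICD_TCFWT, 2428 to 4014 CPM in NOTCHWT_TCFKO and 1851 to 2199 CPM in NOTCHWT_TCFWT, with no gene at 0 in any group. NOTCHWT_TCFKO 2, the library with the most Cd2, Cd7, Cd8a, Cd8b1 and Il2ra of its group, had a T cell receptor complex sum of 10.97 CPM, against 2.06 and 3.25 CPM in NOTCHWT_TCFKO 1 and 3, with Cd3e at 1.73 CPM against 0 and 0.0242 CPM. In the same library erythroid and megakaryocyte markers summed to 682 CPM, against 213 and 205 CPM in NOTCHWT_TCFKO 1 and 3. B lineage markers summed to 74.7 CPM there, against 34.0 and 44.7 CPM in the other two. The part of these cells in the surface antigen values was not tested.

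**Figure D4:**
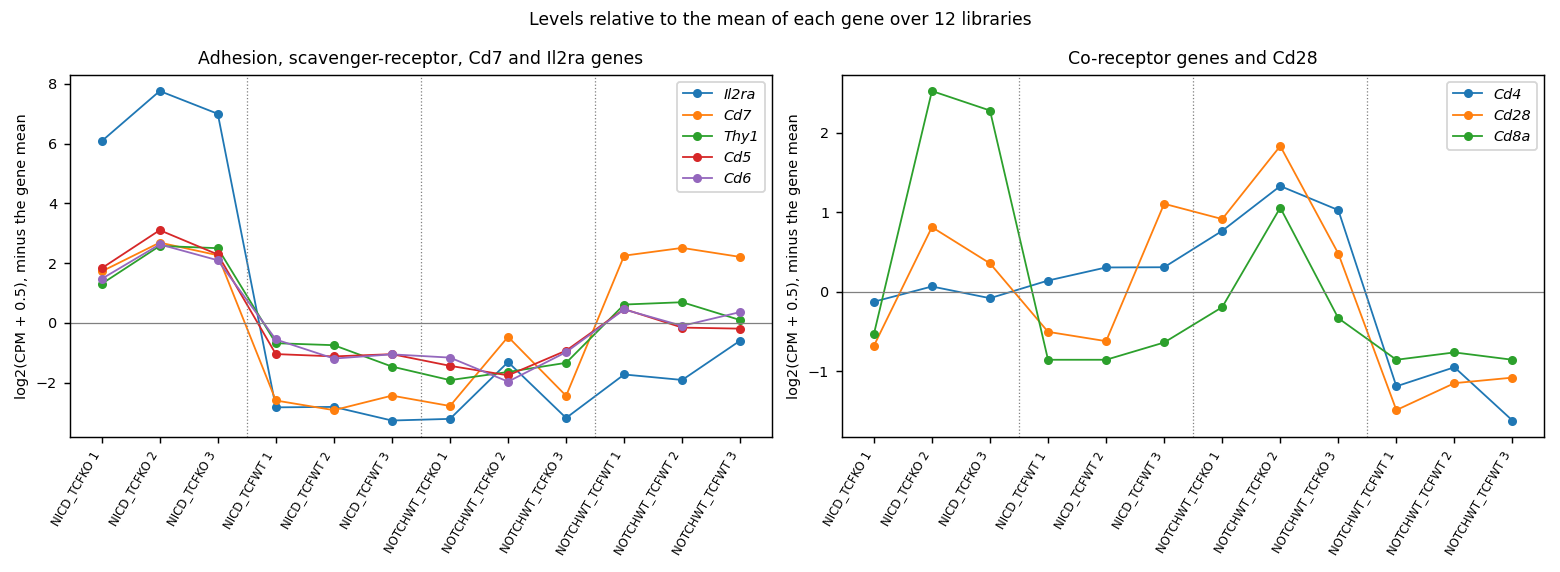
log2(CPM + 0.5) minus the mean of the gene over the 12 libraries (y axis) for each library (x axis, dotted lines between labelled groups); lines join the values of a gene and do not stand for an order. In the left panel Il2ra spans the widest range and Cd7 alone stays as high in NOTCHWT_TCFWT as in NICD_TCFKO, and in the right panel Cd4 and Cd28 are lowest in NOTCHWT_TCFWT while Cd8a is high in NICD_TCFKO 2 and 3.

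Likeness of pattern was measured as the root mean square difference of centred log2(CPM + 0.5) over the 12 libraries, among 12096 candidate genes, as a description of libraries that share their groups. Cd5 and Cd6 differed by 0.30, Thy1 and Cd6 by 0.42 and Thy1 and Cd5 by 0.44, while Cd7 lay 1.395 from Thy1. The genes nearest to Thy1 were Sidt1 (0.40) and Bcl2l14 (0.42), those nearest to Cd5 were Rtn4rl1 (0.37) and Cldn2 (0.44), and those nearest to Cd6 were Lcn4 (0.35) and Cldn2 (0.38). Nearest to Cd7 were Tcte2 (0.66) and the Src family kinase gene Blk (0.74). Nearest to Cd4 were Nfil3 (0.22), a leucine zipper transcription factor gene, and the lectin-like receptor gene Cd302 (0.25), and nearest to Cd28 were Ptpro (0.34) and Dtx4 (0.37). Nearest to Cd8a were Gpr35 (0.34) and Zfp366 (0.41). Nearest to Il2ra were Tcf7 (1.46) and Cd3g (1.502). These distances scale with the spread of the gene itself, whose root mean square about its mean was 4.10 for Il2ra, 2.36 for Cd7, between 1.38 and 1.53 for Thy1, Cd5 and Cd6, 1.19 for Cd8a, 1.01 for Cd28 and 0.85 for Cd4. The added 0.5 CPM also hides differences between levels well below it, so low genes look more alike than their CPM. Cldn2, for one, averaged 5.79 CPM in NICD_TCFKO, 0.0352 CPM in NICD_TCFWT, 0.00808 CPM in NOTCHWT_TCFKO and 1.56 CPM in NOTCHWT_TCFWT.

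Compared per kb of exon, the order of the antigens also differed between groups. In NICD_TCFKO Il2ra (140 CPM per kb) stood above Thy1 (51.5), Cd7 (39.8), Cd5 (3.60) and Cd6 (3.36), and Cd4 (0.814), Cd8a (0.798) and Cd28 (0.198) were lowest of the 8. In NOTCHWT_TCFWT Cd7 (41.3 CPM per kb) stood above Thy1 (15.3), with Cd6 at 0.867, Cd5 at 0.583 and Il2ra at 0.333. In NICD_TCFWT and NOTCHWT_TCFKO Thy1 was the highest, at 5.64 and 3.44 CPM per kb, Cd4 came next in NICD_TCFWT (1.03), and Cd7 (2.48) and then Cd4 (1.89) in NOTCHWT_TCFKO.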

How the data were processed

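Gene expression was measured by RNA sequencing (single-end reads of 75 nt, per the labels' protocols) in 12 libraries. The submitters' processing notes name HISAT2, limma and featureCounts 1.4.4 beside cutadapt 1.9.1, edgeR 3.28.0 and bcl2fastq 2.17, with the build mm10; their roles and the strand setting are not given in the sources used here. The authors deposited raw counts per Ensembl gene, for each library and as a table of the series that holds the same values. They also deposited log2 values for 15759 genes, which equal the log2 of the counts plus 0.5 up to 1 constant per library. These include 6 of the 10 genes and were used only to see which. Symbols and coordinates came from GENCODE M21. All results were computed from the counts in R 4.3.3.

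The 10 genes and the gene lists were chosen with earlier results of these data known. After filterByExpr by group, 16024 genes were scaled by TMM and fitted with 1 mean per group in edgeR 4.0.16 (robust quasi-likelihood, two-sided F test, Benjamini-Hochberg over all genes tested; common biological coefficient of variation 0.299). SE was taken as the size of the log2 fold change over the root of its F statistic, and 95% intervals use the t distribution with the test's degrees of freedom. Ratios with 1 to 3 counts in a group and shares of CD8 counts carry exact binomial 95% intervals. The fit was tested on simulated counts with known changes. The genes named are the 10, then Tcf7, Notch1 and Dtx1, up to 3 called genes per list and pair with the smallest p, the nearest protein-coding genes, and the 2 genes of the nearest pattern. Any other gene is marked as named after its values were seen. A gene that this rule names is not reported here. Motifs were searched on both strands of RefSeq start-site windows.

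Alternatives were RLE size factors, no filter, a filter of 1 CPM in 3 libraries, DESeq2 1.42.0, limma-voom 3.58.1, only the groups of a pair, a replicate block, a term for sample sheets inferred from recurring S numbers in the titles (the labels give batch 1 for all libraries), and leaving out each library. Leaving out NICD_TCFKO 1 and NOTCHWT_TCFKO 2 together and a term for libraries with Xist of at least 100 CPM were chosen after seeing the data.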

Additional observations from a re-analysis of the deposited data

Results flagged for a closer look

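For 7 of the 8 tested genes, the log2 change with labelled N1IC differed between labelled Tcf7 loss (NICD_TCFKO over NOTCHWT_TCFKO) and Tcf7 labelled intact (NICD_TCFWT over NOTCHWT_TCFWT), by edgeR's test of that difference, which 27.4% of all tested genes passed. For Il2ra the difference was 13.07 ± 1.37 (SE, adjusted p = 0.000183), from changes of 10.15 and -2.91, the second of which did not pass by itself, and it was 15.4 without NOTCHWT_TCFKO 2 and 12.3 without NOTCHWT_TCFWT 3. For Cd7 it was 9.53 ± 1.00 (adjusted p = 0.000148), from changes of 4.01 and -5.52, and it was 10.96 without NOTCHWT_TCFKO 2. Thy1 gave 5.34 ± 0.51 (adjusted p = 7.15e-05), from 3.90 and -1.44. Cd5 gave 5.98 ± 0.60 (adjusted p = 5.84e-05), from 4.50 and -1.48. Cd6 gave 5.04 ± 0.54 (adjusted p = 9.67e-05), from 3.74 and -1.30. The sign was opposite for Cd4, at -3.05 ± 0.37 (adjusted p = 0.000187), from -1.21 and 1.83. It was also opposite for Cd28, at -4.62 ± 1.38 (adjusted p = 0.0297), from -1.15, which did not pass, and 3.47, and it lay between -5.25 (without NOTCHWT_TCFWT 3) and -3.28 (without NICD_TCFWT 3) when 1 library was left out. The Cd28 difference was lost without any of 5 libraries, NICD_TCFKO 3, NICD_TCFWT 3, NOTCHWT_TCFKO 2, NOTCHWT_TCFWT 1 and NOTCHWT_TCFWT 2 (highest adjusted p = 0.083), in limma-voom (adjusted p = 0.0547) and without NICD_TCFKO 1 and NOTCHWT_TCFKO 2 together (adjusted p = 0.0808).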

How the results depend on the processing

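With limma-voom and with a term for Xist, 3 genes rather than 6 passed in NICD_TCFWT against NOTCHWT_TCFWT, and 2 to 7 did without 1 library. In NICD_TCFKO against NOTCHWT_TCFWT 3 rather than 6 passed with only these groups fitted, and 3 to 7 without 1 library. In NOTCHWT_TCFKO against NICD_TCFWT DESeq2 called 2 and limma-voom 1, where edgeR called 0. No label pairs the libraries by replicate number, and the values do not settle whether the numbers pair them. Deviations of same-numbered libraries correlated at -0.407 to 0.465, and 6 of 12 libraries correlated best with their own number. The correlations were 0.307, 0.0959 and 0.465 in NICD_TCFKO against NICD_TCFWT, and 0.0689, -0.277 and -0.407 in NOTCHWT_TCFKO against NICD_TCFWT. With a replicate block 4 genes rather than 6 passed in NICD_TCFWT against NOTCHWT_TCFWT (Cd5 adjusted p = 0.0526, Cd6 adjusted p = 0.0556), and the other counts of calls were the same. Changes of sign occurred only in differences that had not passed: Cd7 in NICD_TCFKO against NOTCHWT_TCFWT (-0.31 to 0.17 without 1 library, 0.16 without NICD_TCFKO 1 and NOTCHWT_TCFKO 2, 0.21 with a term for Xist), Cd28 in NICD_TCFKO against NICD_TCFWT (-0.43 to 1.43, and -0.35 with the term), Cd8a in NICD_TCFWT against NOTCHWT_TCFWT (-1.97 to 3.22), Il2ra in NOTCHWT_TCFKO against NICD_TCFWT (-0.87 to 1.96, and -0.87 without both) and the interaction of Cd8a (-1.04 to 4.16, and -0.95 with the term). The cause of these changes was not tested. Depth limits Cd2, Cd8b1 and, outside NICD_TCFKO, Cd8a and Il2ra. It also limits Cd8a in NICD_TCFKO 1, with 5 counts, and Cd28 in NOTCHWT_TCFWT, with 0, 4 and 7 counts.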
